A study of Homo sapiens with 6 samples.

Results

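The ZNF genes outside chromosome 19 are the loci whose symbol is ZNF followed by a number, with or without 1 more letter, and whose hg38 coordinates lie on any other chromosome. The table of expression values holds 47577 loci, and 275 of them met this definition. They were spread over 20 chromosomes. In 234 of the 275 loci, 3 or more of the 6 libraries had a value of 10 or higher, and these loci are called expressed here. The other 41 stayed below it, 20 of them at 0 in every library, and the highest value of any of the 41 in any library was 25.98. The libraries come from OVCAR3, an established cell line of high-grade serous ovarian carcinoma, which is a single line and has no normal counterpart here. PolyA plus RNA was sequenced after 6 h in DMSO, the solvent (3 libraries), or in 200 nM THZ531 (3 libraries), a covalent inhibitor of CDK12 and CDK13. These kinases phosphorylate the tail of RNA polymerase II during elongation. The labels name no genetic change in either group. The titles, descriptions and treatment entries of the libraries name THZ531, whereas the protocol field names THZ1, a related compound, at the same dose, and the libraries were assigned by title.

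C2H2 zinc fingers are small folds held by a zinc ion, and an array of them reads a stretch of DNA. Many ZNF proteins carry a KRAB box at the amino end, which recruits TRIM28 and, through it, SETDB1 and HP1 proteins that silence transposable elements. Others carry a SCAN box for dimerization, act with chromatin-modifying complexes, or bind RNA and ribosomes. ZNF genes cluster on chromosome 19, where segmental duplication multiplied the KRAB type, but they occur in smaller runs on most other chromosomes, and many hold nearly all of their fingers in 1 long last exon.

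The promoters of 7 members are given first, because these members show the largest changes in either direction or face another member across the start site. Each covers 250 bases before and 50 bases after the RefSeq start, 300 in all, on the strand of the gene, and the capitals mark the short letter strings searched. These were CCGGAAG, bound by ETS family factors, the CCAAT box and the TATAAA box, each on both strands, and they do not overlap in these windows. The promoters of ZNF184, ZNF124 and ZNF652, the members with the largest increases, lie at chr6:27473056-27473355 (minus strand), chr1:247171971-247172270 (minus strand) and chr17:49362424-49362723 (minus strand) of GRCh38.p14.
ZNF184: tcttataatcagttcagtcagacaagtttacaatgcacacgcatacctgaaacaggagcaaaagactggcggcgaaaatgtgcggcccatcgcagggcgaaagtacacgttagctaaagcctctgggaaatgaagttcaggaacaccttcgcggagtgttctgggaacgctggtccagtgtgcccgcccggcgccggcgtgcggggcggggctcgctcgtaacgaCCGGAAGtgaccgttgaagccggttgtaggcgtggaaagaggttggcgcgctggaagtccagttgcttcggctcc
ZNF124: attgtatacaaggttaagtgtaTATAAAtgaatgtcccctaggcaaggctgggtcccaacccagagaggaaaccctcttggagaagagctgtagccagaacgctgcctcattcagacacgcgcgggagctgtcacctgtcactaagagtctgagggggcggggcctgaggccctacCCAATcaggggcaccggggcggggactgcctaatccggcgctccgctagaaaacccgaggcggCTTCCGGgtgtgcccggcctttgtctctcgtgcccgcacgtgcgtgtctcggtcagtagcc
ZNF652: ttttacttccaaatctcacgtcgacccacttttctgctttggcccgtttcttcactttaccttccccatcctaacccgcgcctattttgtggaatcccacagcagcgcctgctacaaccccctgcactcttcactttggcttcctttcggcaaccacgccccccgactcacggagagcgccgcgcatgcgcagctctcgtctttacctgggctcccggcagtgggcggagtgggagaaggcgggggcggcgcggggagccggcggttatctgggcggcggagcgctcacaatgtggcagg

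The promoters of ZNF594 and ZNF362, among the members with the largest decreases, lie at chr17:5191819-5192118 (minus strand) and chr1:33256242-33256541 (plus strand). The window of ZNF594 holds CCGGAAG in 2 places, and that of ZNF362 holds it once and contains 51 CpG pairs.
ZNF594: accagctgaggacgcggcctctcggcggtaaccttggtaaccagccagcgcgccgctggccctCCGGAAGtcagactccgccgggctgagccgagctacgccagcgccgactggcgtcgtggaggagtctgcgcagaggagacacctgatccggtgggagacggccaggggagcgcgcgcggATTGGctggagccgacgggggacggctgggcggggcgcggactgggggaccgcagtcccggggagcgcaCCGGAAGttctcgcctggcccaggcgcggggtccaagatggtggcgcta
ZNF362: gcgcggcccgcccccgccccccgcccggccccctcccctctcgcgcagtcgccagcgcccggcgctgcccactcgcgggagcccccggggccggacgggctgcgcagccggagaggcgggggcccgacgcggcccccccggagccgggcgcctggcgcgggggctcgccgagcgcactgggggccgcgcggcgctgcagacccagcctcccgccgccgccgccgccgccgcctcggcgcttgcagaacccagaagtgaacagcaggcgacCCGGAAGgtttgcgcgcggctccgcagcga

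The last windows are those of ZNF646, at chr16:31074172-31074471 (plus strand), and ZNF398, at chr7:149126158-149126457 (plus strand). Each also holds the start of a second member on the opposite strand, ZNF668 in the first and ZNF425 in the second. The window of ZNF398 holds none of the strings searched, and neither does that of ZNF652 hold any of the short ones.
ZNF646: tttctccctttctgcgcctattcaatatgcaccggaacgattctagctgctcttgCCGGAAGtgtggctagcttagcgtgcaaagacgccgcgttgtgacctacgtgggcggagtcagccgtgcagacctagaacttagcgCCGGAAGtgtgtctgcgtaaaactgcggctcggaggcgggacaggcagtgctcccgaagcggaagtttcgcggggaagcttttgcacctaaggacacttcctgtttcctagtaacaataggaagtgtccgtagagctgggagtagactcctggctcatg
ZNF398: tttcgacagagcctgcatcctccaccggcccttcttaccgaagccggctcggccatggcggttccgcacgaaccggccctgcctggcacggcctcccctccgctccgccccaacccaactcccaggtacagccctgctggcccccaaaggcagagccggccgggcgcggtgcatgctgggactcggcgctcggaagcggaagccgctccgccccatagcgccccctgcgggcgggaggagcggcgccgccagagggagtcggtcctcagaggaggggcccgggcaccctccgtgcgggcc

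A RefSeq promoter was matched to 189 of the 234 expressed members. CCGGAAG was found in 35.45% of them, against 10.26% of all 35116 RefSeq promoters. The string CCAAT was found in 43.39% against 34.61%, and TATAAA in 4.233% against 11.53%. Among longer strings that were searched but are not capitalized, the NRF1 palindrome was found in 3.175% against 1.239%, and the core of the site read by ZNF143 and ZNF76 in 2.646% against 0.2478%. The median number of CpG pairs per window was 24 in the members and 14 in all promoters. Among the members themselves, CCGGAAG was found in 24% of the 25 promoters of increased members, in 28.75% of the 80 of decreased members and in 45.24% of the 84 of members not called. The set of all RefSeq promoters was not limited to expressed genes, and the promoters of other expressed genes were not examined apart. These are descriptions of the windows, and no binding was measured.

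Each library had from 53054048 to 70986130 reads on genes. The values are reads after division by the size factor of their library, and they are not corrected for gene length. The labels number the libraries of a group as replicates without naming separate cultures, so that the p-values measure the spread between these libraries, which may be technical. Of 10 markers of serous ovarian carcinoma, all were expressed, with a summed value of 443418 to 454548 in DMSO and 564746 to 577275 in THZ531, while PAX8 alone was decreased, from a mean of 11272 in DMSO to between 1161 and 1380 in the THZ531 libraries. Of 9 markers of other cell types, 5 were expressed and CD3E and ALB were at 0 in every library. Their summed value was 1195 to 1279 in DMSO and 2342 to 2627 in THZ531, with increases of COL1A1 and VWF, and their part in the results was not tested. In bulk RNA, fewer cells of a type and less RNA per cell cannot be told apart.

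After THZ531 many more of these genes decreased than increased. Of the 234 expressed members, 101 decreased and 27 increased, and 106 were not called. A member was called when limma gave a change of 1.5-fold or more with p not above 0.05 before adjustment, on the log2(value + 1) scale, which understates the change of weakly expressed genes. The decreased members are 43.16% of the 234, whereas 23.9% of all 17568 expressed loci decreased. The increased members are 11.54%, against 15.7% of all loci, and 39.5% of all loci were called in either direction. With the Benjamini-Hochberg adjusted p over all loci in place of the unadjusted p, the same numbers of members were called. Without a fold threshold, an adjusted p of at most 0.05 was reached by 57 members above 0 (34.6% of all loci) and 137 below 0 (34.1% of all loci). The median log2 fold change was -0.46 over the members and -0.01 over all expressed loci, and 161 of the 234 members (68.8%) lay below 0. On chromosome 19, 206 ZNF loci were expressed, 99 of them decreased and 24 increased, with a median of -0.61.

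**Figure D1:**
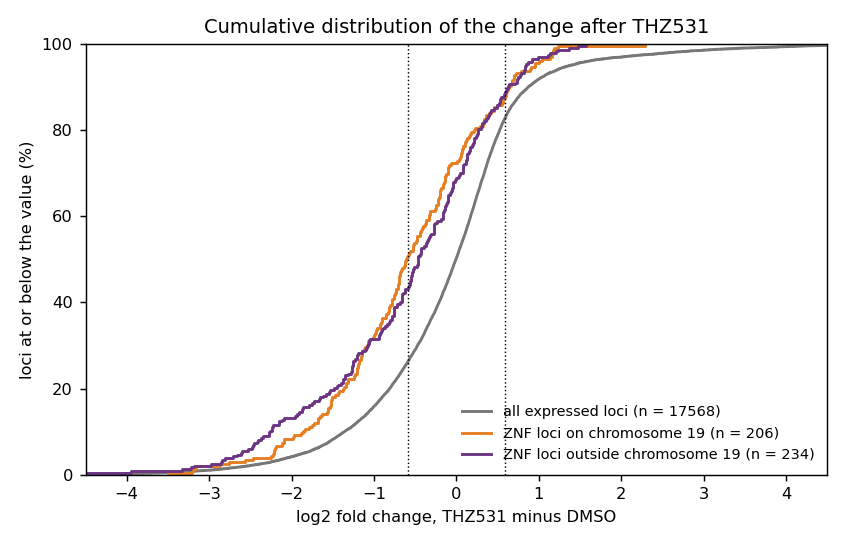
Cumulative distribution of the log2 fold change (horizontal axis, THZ531 minus DMSO) as the percentage of loci at or below each value (vertical axis), with dotted lines at a fold change of 1.5 in either direction. The curve of the 234 ZNF loci outside chromosome 19 runs to the left of that of all 17568 expressed loci over most of its length, close to that of the 206 ZNF loci on chromosome 19, and 68.8% of the members lie below 0.

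The decreases were also the deeper changes. A fold change of at least 2 was reached by 74 decreased members (15.3% of all loci decreased this far) and by 7 increased members (7.7% of all loci). A decrease of at least 4-fold was found in 31 members (4.17% of all loci), whereas no increase reached this size. In all 128 called members the values of the DMSO libraries did not overlap those of the THZ531 libraries. Over the 234 members the groups did not overlap in 201, and over all loci in 71.7%. The 3 THZ531 libraries were alike, with medians over the members of -0.47, -0.45 and -0.42 relative to the DMSO mean on the log2 scale. The minimum was reached in all 6 libraries by 226 of the members. Only in ZNF75D, a KRAB and SCAN gene of the X chromosome, was it reached in all DMSO libraries and in no THZ531 library. Its values were 77.8, 64.95 and 58.25 in DMSO and 0, 0 and 7.964 in THZ531. In ZNF662, ZNF487, ZNF19 and ZNF658B fewer than 3 THZ531 libraries reached it. Like ZNF75D, these passed only with their DMSO libraries, which favours a decrease.

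In reads, the members were a small part of the transcriptome. Together they took 0.5406%, 0.547% and 0.5436% of the normalized values in the DMSO libraries and 0.4234%, 0.4299% and 0.4273% in the THZ531 libraries. The summed value of the 101 decreased members went from 95923, 97615 and 99036 to 38512, 38922 and 39827, and that of the 27 increased members from 45883, 45964 and 47026 to 82918, 81699 and 79537. These sums describe members chosen by their change. The balance of increases depended on scaling. With every library scaled to the same total, which moved the median of all loci from -0.01 to -0.25, 13 members increased and 127 decreased. With scaling to RPL34 (all loci -0.50) 7 increased and 152 decreased. All 101 decreases were called under both. The median of the members was then -0.71 and -0.96.

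The largest increases belonged to genes of different types. ZNF184, a KRAB gene next to the histone cluster of chromosome 6 (chr6:27403993-27473115), had 686.7, 747.9 and 727.7 normalized reads in DMSO and 2193, 2178 and 2073 in THZ531. The lowest THZ531 library was well above the highest DMSO library, and the log2 fold change was 1.57 (SE 0.06, limma adjusted p = 5.1e-12). ZNF124, a KRAB gene of chromosome 1, went from 574.8, 592 and 670.2 to 1790, 1758 and 1555 (log2 fold change 1.47, SE 0.08). ZNF652, which encodes a repressor that works with the corepressor CBFA2T3 (chr17:49289206-49362473), went from 870.1, 874.1 and 902.4 to 2348, 2286 and 2192 (1.37, SE 0.06). These genes were chosen among members whose groups did not overlap, and in each the spread within a group was small. ZNF512, a nuclear protein of pericentromeric chromatin, had 1011, 974.3 and 869.7 in DMSO and 2236, 2304 and 2173 in THZ531 (1.24). ZNF695, ZNF654, ZNF503, ZNF668, ZNF26 and ZNF670 followed with log2 fold changes of 1.21, 1.14, 0.99, 0.91, 0.91 and 0.84. All 85406 bases of ZNF654 lie inside the locus of CGGBP1 on the opposite strand. The strand setting used for counting is not known, so reads of these 2 loci may not be separate. ZNF503, a corepressor of development, was by far the most abundant of the 10, with 7779, 8821 and 9069 in DMSO and 17347, 17221 and 16474 in THZ531. Under scaling to RPL34 the values of ZNF503, ZNF668, ZNF26 and ZNF670 lay between 0.35 and 0.50 and were no longer called, and the other 6 were.

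The 10 largest decreases, among members with a mean over the 6 libraries of at least 100, were all more than 5-fold. Below that mean, ZNF75D (-5.02), ZNF662 (-3.95) and ZNF839 (-3.33) had lower values than any of the 10. As given above, ZNF75D and ZNF662 passed the minimum only with their DMSO libraries. ZNF623, a gene of 2 exons with 96.8% of its transcript in the last (chr8:143636019-143656418), had 2589, 2690 and 2593 normalized reads in DMSO and 327.5, 285.3 and 237.8 in THZ531. The groups were far apart, with a log2 fold change of -3.22 (SE 0.10, limma adjusted p = 2.7e-13). ZNF594 on chromosome 17 went from 640.7, 555.8 and 656.7 to 80.61, 82.98 and 44.37 (log2 fold change -3.19, SE 0.20), and ZNF251 on chromosome 8 from 863.8, 760 and 786.7 to 112.1, 100 and 91.01 (-2.98, SE 0.12). The groups stood far apart in both. ZNF41, a KRAB gene of the X chromosome, went from 814.5, 699.6 and 826.6 to 119.7, 109.1 and 103.5 (-2.80, SE 0.12). ZNF362, a factor related to ZNF384, went from 1224, 1415 and 1340 to 230.5, 194.4 and 220.7 (-2.62, SE 0.10). ZNF469, in which mutations cause brittle cornea syndrome, went from 493.8, 445.4 and 435.6 to 99.5, 56.84 and 58.02 (-2.71, SE 0.20). The other 4, ZNF117, ZNF425, ZNF70 and ZNF764, had log2 fold changes of -2.86, -2.84, -2.53 and -2.47. ZNF117 overlaps the endogenous retroviral gene ERV3-1 on the same strand by 681 bases and ZNF764 lies inside the long locus that the annotation gives to MAPK3, so that reads of these 2 could have been counted elsewhere in part.

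**Figure D2:**
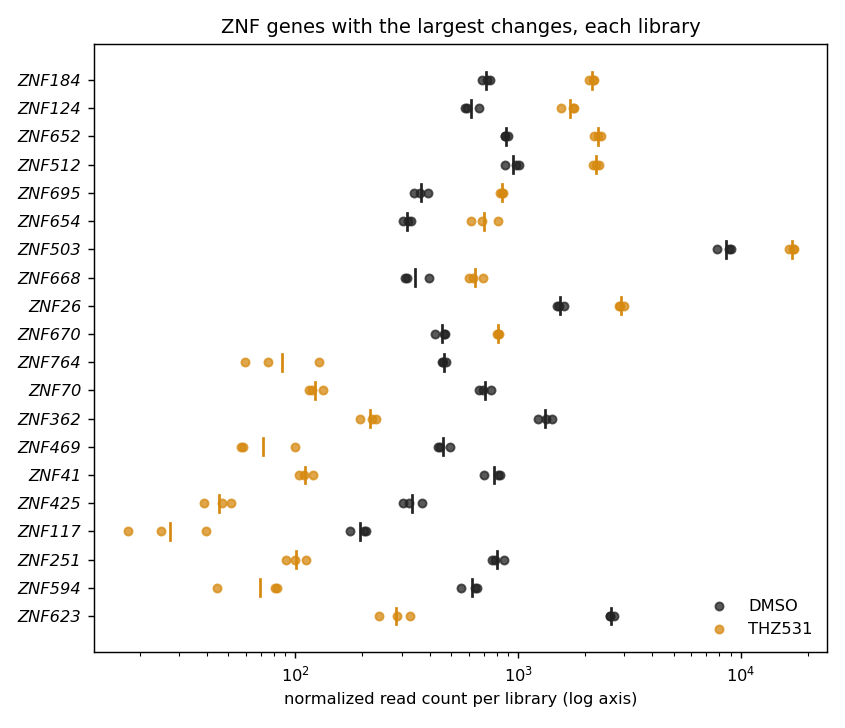
Normalized read counts (logarithmic horizontal axis) of the 10 members with the largest increases and the 10 with the largest decreases, 1 dot per library, with a vertical bar at the mean of each group of 3. Only members whose groups did not overlap were eligible, so in every gene shown the 3 THZ531 libraries lie on 1 side of the 3 DMSO libraries. The genes run from ZNF184 (log2 fold change 1.57) at the top to ZNF623 (-3.22) at the bottom.

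The members with the most reads did not move together. ZNF664 had 16523, 17595 and 18405 in DMSO and 19513, 19003 and 18645 in THZ531, a log2 fold change of 0.12 that was not called and that turned to -0.12 and -0.37 with scaling to the same total and to RPL34. ZNF609, a regulator that binds Integrator and the cohesin loader NIPBL (chr15:64460578-64686068), fell from 12764, 12809 and 13137 to 2513, 2642 and 3069 (-2.24, SE 0.06, limma adjusted p = 6.2e-14). This was the largest loss of reads of any of the 5 most abundant members. ZNF770 fell from 9276, 10777 and 11445 to 6493, 6292 and 6252 (-0.72), while ZNF207, described with the RNA-linked members, rose by 0.59. ZNF395 was at 10095, 10523 and 10124 in DMSO and 8006, 8100 and 8244 in THZ531 (-0.34, not called). Per kilobase of transcript, ZNF664 (4060 per kb), ZNF503 (2670), ZNF598 (2486), ZNF395 (2136) and ZNF770 (1930) had the highest DMSO levels of the members. At the other end, ZNF658B (23.02, 27.84 and 19.15 in DMSO and 11.34, 0 and 3.413 in THZ531) and ZNF157 (16.67, 42.68 and 35.11, then 17.63, 20.46 and 21.62) were just inside the minimum. ZNF396 (16.67, 9.279 and 11.17, then 0, 2.273 and 6.826) and ZNF354C (6.351, 3.712 and 6.383, then 8.816, 13.64 and 9.101) were just outside.

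Members that work with chromatin or at promoters are described next. Of 27 such members that were expressed, 6 increased (22.22%, against 15.7% of all loci), 7 decreased (25.93%, against 23.9%) and 14 were not called. The decreased share was near that of all loci, and the median was -0.27. ZNF592, ZNF687 and ZNF532 are paralogs that bind the reader protein ZMYND8. ZNF592 rose from 3584, 3234 and 3254 to 5336, 5726 and 5721 (log2 fold change 0.74), ZNF687 fell from 1294, 1410 and 1294 to 822.4, 802.5 and 737.2 (-0.76), and ZNF532 had 0.31 and was not called. The members of 5 further pairs of paralogs differed in their calls, and pairs that shared a call were not counted. ZNF609 fell (-2.24) and its paralog ZNF608 had 0.50 and was not called. ZNF512 rose (1.24), whereas ZNF512B, which binds the NuRD complex, fell from 2272, 2375 and 2090 to 1179, 1229 and 1207 (-0.90). ZNF518A rose (0.59, SE 0.09), whereas ZNF518B, a partner of the H3K9 methyltransferase G9a, fell from 1002, 1085 and 1173 to 324.9, 316 and 320.8 (-1.75, SE 0.09). The call of ZNF518A was near the threshold and was lost with a pseudocount of 10 (0.58), with edgeR and upper-quartile scaling (0.57 in both) and without DMSO replicate 1, DMSO replicate 2, THZ531 replicate 1 or THZ531 replicate 2 (0.52 to 0.58). ZNF503 rose, as given above, and its paralog ZNF703 had 0.46, in the same direction, and was not called. ZNF143 and ZNF76, activators of snRNA and many coding promoters, differed too, with 0.38 (not called) for ZNF143 and a fall of ZNF76 from 887.6, 795.2 and 810.7 to 256.9, 285.3 and 351.5 (-1.49, SE 0.11). No difference between 2 paralogs was itself tested. ZNF217, an oncogene and corepressor amplified in ovarian and breast cancer, rose from 3360, 3544 and 3737 to 5644, 5144 and 5580 (0.62). This call was lost without DMSO replicate 1 (0.58). ZNF516 (-0.94) and ZNF644 (-1.26), both linked to H3K4 or H3K9 modifying enzymes, fell. With scaling to the same total, ZNF592 (0.49), ZNF217 (0.38) and ZNF518A (0.35) were no longer called, with RPL34 ZNF503 (0.50) was not either, and none of the 7 decreases was lost.

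Members that act on RNA or ribosomes were fewer. Of 15, 3 increased (20%, against 15.7% of all loci) and 3 decreased (20%, against 23.9%), shares near those of all loci, with a median of -0.07. ZNF207, a mitotic protein that also binds the spliceosome, rose from 12691, 11820 and 12324 to 19023, 18476 and 18121 (log2 fold change 0.59, SE 0.04). Its fold change of 1.51 was at the threshold, and it was not called by edgeR or with upper-quartile scaling (0.57 in both), nor without DMSO replicate 2 (0.57) or THZ531 replicate 1 (0.58). ZNF622, a factor in the maturation of the large ribosomal subunit, rose by 0.61 and was not called without THZ531 replicate 1 (0.58). With scaling to the same total the increases of ZNF207 and ZNF622 were lost (0.35 and 0.37). ZNF330, a nucleolar protein, rose from 924.9, 953 and 928.7 to 1684, 1643 and 1668 (0.83). None of the 3 increases was called under scaling to RPL34 (0.10, 0.12 and 0.34). ZNF638, an RNA-binding protein that brings the HUSH complex to foreign DNA, fell from 6349, 5985 and 6362 to 2831, 2811 and 3191 (-1.08). ZNF346, which binds double-stranded RNA, fell from 402.5, 360 and 477.9 to 178.8, 126.2 and 149 (-1.45, SE 0.15), and the weakly expressed ZNF385B fell by 1.21. ZNF598, the ubiquitin ligase of collided ribosomes, was at 7943, 8747 and 8415 in DMSO and 8923, 9430 and 9108 in THZ531 (0.13, not called), and ZNF593, another factor of ribosome maturation, had -0.05 and was not called.

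The partners of KRAB proteins were examined next, as a list of 31 expressed genes that are not ZNF genes. Of these, 3 increased (9.677%, against 15.7% of all loci), 8 decreased (25.81%, against 23.9%) and 20 were not called, with a median of 0.17. The decreased share was near that of all loci. TRIM28, the corepressor that KRAB boxes bind, rose from 14906, 14232 and 14135 to 21519, 22527 and 22058 (log2 fold change 0.61, SE 0.04), although this call was lost under scaling to the same total (0.37) or RPL34 (0.12). ATF7IP, which stabilizes the methyltransferase SETDB1, rose from 3250, 3436 and 3455 to 9711, 9830 and 9561 (1.52, SE 0.04), while its paralog ATF7IP2 fell (-1.89). SETDB1 itself had 0.23 and was not called. The HUSH genes TASOR and MPHOSPH8 and the HUSH effector MORC2 fell. TASOR went from 2687, 2640 and 2742 to 651.1, 744.5 and 645.1 (-1.98, SE 0.07) and MPHOSPH8 from 620.8, 585.5 and 627.1 to 372.8, 384.2 and 372 (-0.70), while MORC2 went from 5979, 6099 and 5900 to 1267, 1148 and 1486 (-2.21, SE 0.07). PPHLN1, the other HUSH gene, had 0.06 and was not called. CBX5, which encodes HP1 alpha, fell by 1.34, while CBX1, which encodes HP1 beta, had 0.41 and was not called. Among the NuRD subunits, MTA2 rose by 0.77 (0.52 and not called with the same total) and MTA1 (-0.89) and MBD3 (-0.69) fell. The H3K9 methyltransferase gene SUV39H1 fell by 0.80 on the log2 scale.

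**Figure D3:**
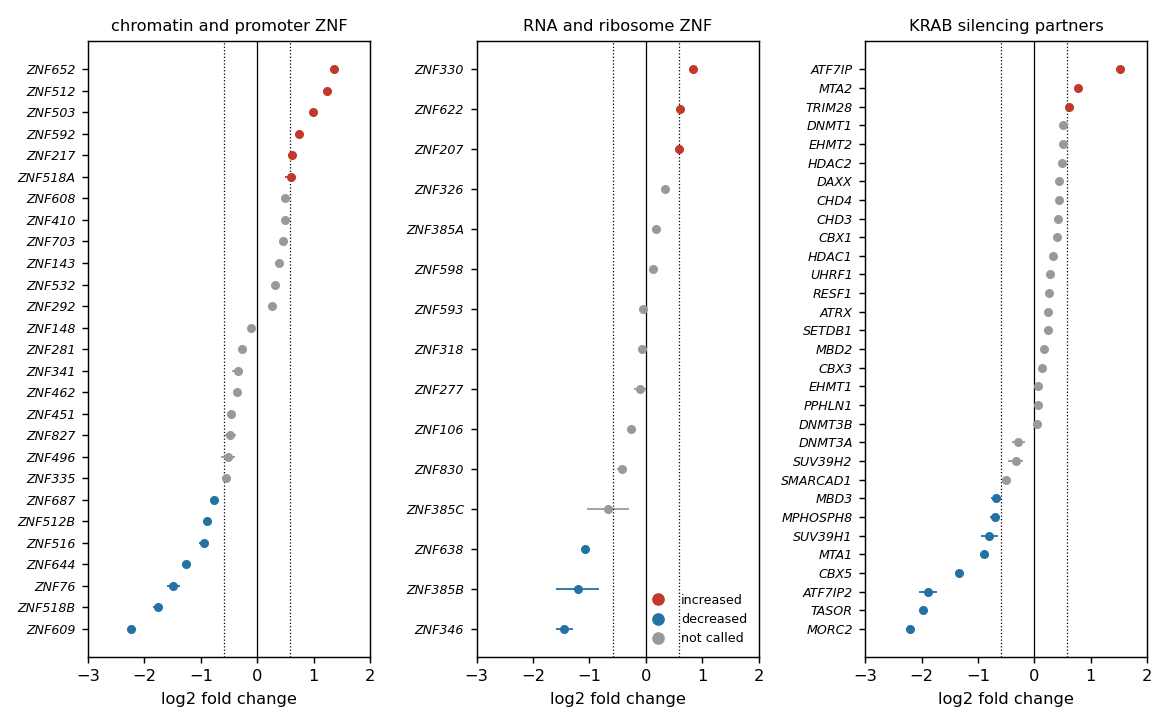
Log2 fold change (THZ531 minus DMSO, horizontal axes) with standard errors for the 27 expressed chromatin and promoter members, the 15 expressed RNA and ribosome members and the 31 expressed KRAB silencing partners, with dotted lines at a fold change of 1.5. In each panel called increases and decreases stand side by side, from ZNF652 (1.37) to ZNF609 (-2.24) in the first and from ATF7IP (1.52) to MORC2 (-2.21) in the last.

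Protein types were counted by letter patterns, and no difference between types was tested. For comparison, 23.9% of all expressed loci decreased and 15.7% increased, and 43.16% of the 234 members decreased and 11.54% increased. The KRAB box was found by a letter pattern in 74 of the 226 expressed members with a translated GENCODE protein, and 32 of these decreased and 8 increased (median -0.43). Of the 152 without the pattern, 63 decreased and 19 increased (median -0.45), so that these 2 groups were alike. The pattern misses divergent boxes, among them those of ZNF184 and ZNF10. With a looser pattern, chosen after the data were seen, 82 members were counted as KRAB genes, still without ZNF10, 36 of them decreased and 9 increased. Of 19 members with a SCAN pattern, 10 decreased (52.63%) and none increased (median -0.63). Of the other 207, 85 decreased (41.06%) and 27 increased (median -0.39). Members with 3 fingers or fewer decreased in 10 of 36 cases (27.78%), with a median of -0.09. Those with 4 to 7 decreased in 26 of 57 (median -0.57) and those with 8 to 11 in 33 of 69 (median -0.48). Those with 12 or more decreased in 26 of 64 (median -0.46). Spearman's rho between finger number and log2 fold change was -0.08, given as a description. The last exon made up at least 80% of the transcript in 134 members, and 66 of these decreased (49.25%) and 15 increased. With a last exon of 60 to 80%, 12 of 37 decreased (32.43%), and under 60%, 22 of 62 (35.48%). Of 5 members whose symbol ends in P, for pseudogene, 4 decreased.

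Short loci decreased most often. Of 93 expressed members under 20 kb, 51 decreased (54.84%) and 4 increased (4.301%), with a median log2 fold change of -0.66. From 20 to 60 kb, 36 of 92 decreased (39.13%) and 11 increased, with a median of -0.38. At 60 kb or more, 14 of 49 decreased (28.57%) and 12 increased (24.49%), with a median of -0.11. Among the other expressed loci with a symbol the decreased share was 21.94%, 23.44% and 24.12% in the same 3 classes. The median length was 19955 bases in the decreased members, 25517 in those not called and 58097 in the increased ones. Across the 234 members, Spearman's rho between length and log2 fold change was 0.18, and across the other loci with a symbol it was -0.06. These loci share their libraries and rho is given as a description. Length here is the extent of the annotated locus, which can exceed that of the transcript. The locus of ZNF503, an increased member, is 122192 bases long. Its GENCODE transcript has 2 exons, 3205 bases and an intron of 730 bases. The extent of the transcripts was not compared with the change.

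The level in DMSO moved with the change as well. Of 27 members with a DMSO mean under 100, 16 decreased and 2 increased (median -1.21). Of 85 members between 100 and 500, 45 decreased and 9 increased (median -0.66), and of 122 members at 500 or more, 40 decreased and 16 increased (median -0.25). The other loci with a symbol decreased in 25.33%, 37.39% and 17.24% of cases in these classes. Within the class of at least 500, members under 20 kb decreased in 20 of 47 cases and increased in 2, and members of at least 60 kb decreased in 5 of 26 and increased in 6. Level and length were nearly unrelated across the members (Spearman's rho 0.04).

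**Figure D4:**
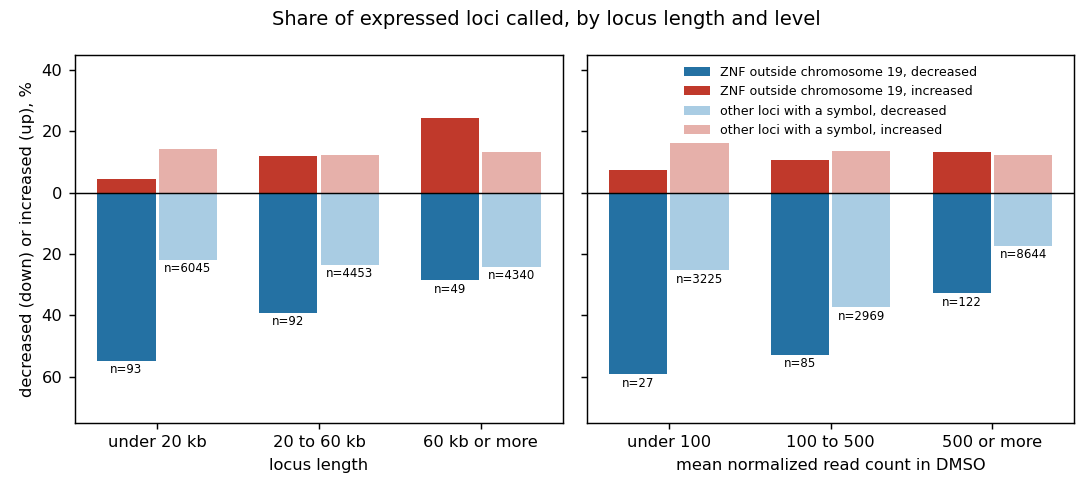
Percentage of expressed loci that decreased (bars downward) or increased (bars upward), by locus length in the left panel and by mean normalized read count in DMSO in the right panel, with the number of loci under each bar. Dark bars are ZNF loci outside chromosome 19 and pale bars are the other loci with a symbol, and the decreased share of the ZNF loci falls from 54.84% under 20 kb to 28.57% at 60 kb or more.

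Neighbouring members were compared in 13 genomic runs, each with at least 4 expressed members and gaps of at most 500 kb. The runs held 79 members, 38 of them decreased (48.1%, against 23.9% of all loci) and 5 increased (6.329%, against 15.7%). Of the 155 members outside the runs, 63 decreased (40.65%) and 22 increased (14.19%). The difference between members inside and outside the runs was not tested. The run at the end of the long arm of chromosome 1 was the only one with more increases than decreases. Within it ZNF695, ZNF670 and ZNF124 rose, by 1.21, 0.84 and 1.47, while ZNF669 (-0.16) and ZNF496 (-0.52) were not called. ZNF496 was called without DMSO replicate 1 (-0.66) or THZ531 replicate 1 (-0.59) and under scaling to the same total or RPL34. ZNF669, which is 6269 bases long, lies between ZNF670 (44175 bases) and ZNF124 (50046 bases). It had 416.8, 409.2 and 391 in DMSO and 389.2, 354.7 and 343.6 in THZ531, so that its groups stood apart by less than the threshold of fold change. In the run at the end of chromosome 12, ZNF26 rose from 1601, 1490 and 1529 to 2980, 2845 and 2877 (0.91), while ZNF605 and ZNF140 in the same run fell by 0.79 and 0.76.

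The most uniform run was that at the end of chromosome 8, where 6 of 7 members fell and the other, ZNF16, had -0.55 and was not called, although it was when 1 of 4 libraries, DMSO replicates 2 and 3 and THZ531 replicates 2 and 3, was left out (-0.62 to -0.59), and under scaling to the same total or RPL34. ZNF251 fell most (-2.98), and ZNF252P, a pseudogene that made many reads, fell from 2245, 2251 and 2263 to 580.6, 602.5 and 662.1 (-1.87, SE 0.07). In this run ZNF517 and ZNF7 lie inside the locus that the annotation gives to RPL8, on the opposite strand. ZNF250 overlaps that locus by 1109 bases on the same strand, so that some reads could have been counted elsewhere. Across all 16 expressed members of chromosome 8, 10 decreased (62.5%, against 23.9% of all loci) and none increased (against 15.7% of all loci). In the longer of the 2 runs of chromosome 16, ZNF668 rose and 7 of 10 members fell, among them ZNF629, from 3457, 3495 and 3468 to 1200, 1206 and 1198 (-1.53, SE 0.05). Of these 10, 6 lie within the MAPK3 locus of the annotation on the same strand. Across all 27 members of chromosome 16, 16 decreased (59.26%) and 1 increased (3.704%). The run of 11 members on chromosome 7 held 5 decreases (45.45%) and no increase, with ZNF425 (-2.84), ZNF786 (-2.10) and ZNF862 (-1.96) the lowest.

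**Figure D5:**
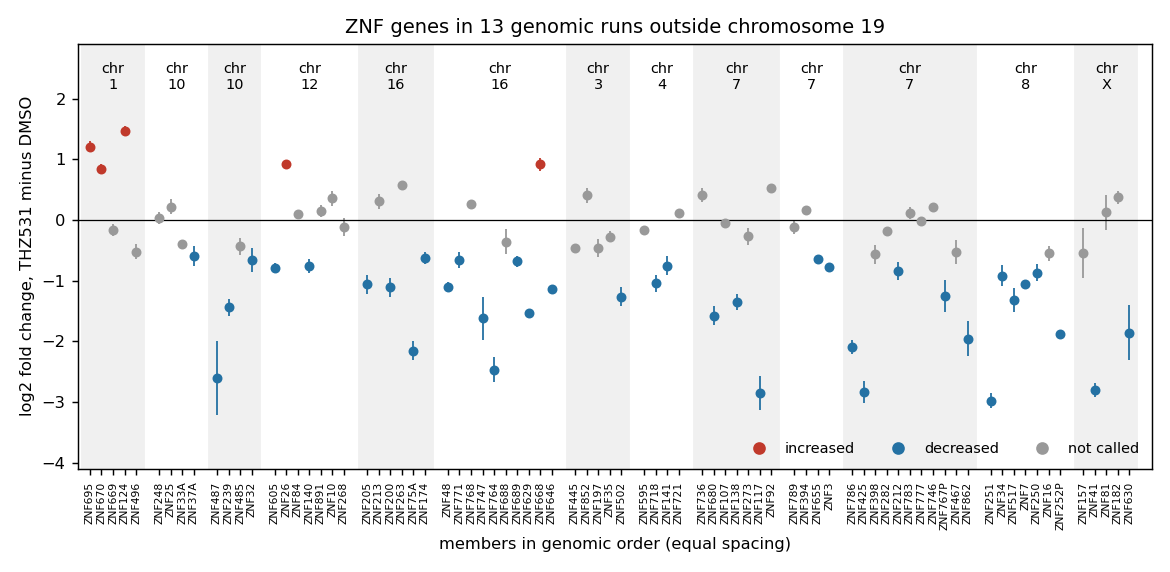
Log2 fold change (THZ531 minus DMSO, vertical axis, with standard errors) of the 79 members in 13 runs, in genomic order with equal spacing, shaded by run and labelled with the chromosome. Blue dots (decreased, 38) outnumber red dots (increased, 5), and 3 of the 5 red dots are in the run of chromosome 1. Over all expressed loci 23.9% decreased and 15.7% increased.

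Several members start back to back, and in some pairs the partners differed. ZNF668 and ZNF646 on chromosome 16 start 181 bases apart on opposite strands, within the window printed for ZNF646. ZNF668 rose from 398.5, 318.3 and 311.2 to 628.5, 603.6 and 698.5 (0.91, SE 0.11), although it was not called under scaling to RPL34 (0.42), while ZNF646 fell from 2085, 2128 and 2069 to 903, 986.7 and 951.1 (-1.14, SE 0.06). ZNF425 and ZNF398 on chromosome 7 start 83 bases apart. ZNF425 fell from 323.9, 371.2 and 303.2 to 39.04, 51.15 and 46.64 (-2.84), whereas ZNF398 had 225.5, 309.9 and 356.7 in DMSO and 204, 193.2 and 193.4 in THZ531 (-0.57, not called). ZNF398 was just short of the threshold and was called under 7 alternatives (-1.06 to -0.59), which were the same total, the upper quartile, RPL34, edgeR, DESeq2 and leaving out DMSO replicate 1 (-0.75) or THZ531 replicate 1 (-0.59). ZNF204P and ZNF391 on chromosome 6 overlap by 760 bases at their starts, and both fell (-1.37 and -2.28). ZNF75D fell, as given above, while ZNF449, which overlaps its start by 407 bases, had -0.17 and was not called. ZNF891 and ZNF10 on chromosome 12 (352 bases apart) had 0.15 and 0.36 and were not called.

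Antisense genes named after a member were expressed in 10 cases, of which 1 increased (10%, against 15.7% of all loci) and 4 decreased (40%, against 23.9%). With so few genes these shares are a description. ZNF687-AS1 rose from 40.49, 23.2 and 31.92 to 84.38, 78.43 and 67.12 (log2 fold change 1.27, SE 0.29), opposite in direction to ZNF687. ZNF503-AS2 fell from 569.2, 626.3 and 663 to 432, 392.2 and 399.3 (-0.60), again opposite to ZNF503. ZNF407-AS1 (-2.05) and ZNF213-AS1 (-0.82) fell too, while ZNF407 (0.53) and ZNF213 (0.30) were not called. ZNF252P-AS1 (-1.03) fell in the same direction as ZNF252P (-1.87), although the groups of ZNF252P-AS1 overlapped. The library kit marks the strand, but the strand setting used for counting is not given in the sources used here, so reads of overlapping antisense partners may not be separate.

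Some loci without a symbol lie inside a member and changed apart from it. There were 16 expressed loci of this kind, of which 8 increased and 5 decreased. Of all 2290 expressed loci without a symbol, 31.09% increased and 25.33% decreased. These counts depend on the minimum, because in 5 of the 8 increased loci fewer than 3 DMSO libraries reached it, and in 1 of the 5 decreased loci no THZ531 library did. The locus inside intron 7 of ZNF148 (chr3:125246276-125251288) had 0, 0 and 1.596 in DMSO and 40.3, 50.01 and 35.27 in THZ531, while ZNF148 itself, a GC-box factor, had a log2 fold change of -0.11 and was not called. The locus inside intron 3 of ZNF532 had 3.176, 0 and 0 in DMSO and 32.75, 32.96 and 55.75 in THZ531. No DMSO library reached the minimum of 10 in these 2 loci or in the locus of ZNF131 below, and they count as expressed through the THZ531 libraries alone, so that a low DMSO level was fixed by the minimum. The locus inside the second intron of ZNF721 (joined with ABCA11P in the annotation) went from 11.11, 0 and 6.383 to 40.3, 62.52 and 59.16 (3.60, SE 0.72), and that inside ZNF704 from 0, 6.495 and 11.97 to 52.9, 73.89 and 78.5 (3.90, SE 0.72). Neither host was called. Both of these loci also needed the THZ531 libraries to pass, since fewer than 3 DMSO libraries reached the minimum, which favours a low DMSO level. A locus that also covers an exon of ZNF131 went from 9.527, 7.423 and 4.787 to 88.16, 78.43 and 69.4 (3.31, SE 0.38), while ZNF131 had 0.08. The reverse was found in ZNF487. It fell from 75.42, 93.72 and 71.01 to 21.41, 30.69 and 2.275 (-2.60, SE 0.61), while the locus in its first intron rose from 24.61, 17.63 and 11.17 to 59.2, 43.19 and 44.37 (1.46, SE 0.37). ZNF487 itself passed the minimum only with its DMSO libraries. Not all such loci rose. Those inside ZNF623 (-2.54), ZNF337 (-1.96), ZNF770 (-1.52, on the opposite strand) and ZNF251 (-1.23) fell, as did their hosts. A second locus of ZNF721, in its first intron, fell from 51.6, 75.16 and 115.7 to 46.6, 36.37 and 27.3 (-1.07, SE 0.32). The locus in the second intron of this host moved the other way, but it had needed the THZ531 libraries to pass the minimum. The contrast is therefore only a description.

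The hexamer AATAAA, the usual signal for cleavage and polyadenylation, was searched in these loci on the strand of the host. Apart from the loci in ZNF704 and ZNF623, which were not included, 10 lie on the same strand as their host, and of these 7 hold the hexamer and 4 end within 30 bases after the last one. These 4 are the loci in ZNF487 (23 bases), ZNF718 (17 bases), ZNF721 (the increased locus, 12 bases) and ZNF438 (13 bases, not called). The loci in ZNF148 and ZNF131 and the decreased locus of ZNF721 end 4331, 1148 and 888 bases after their last hexamer, and those in ZNF532, ZNF337 and ZNF219 hold none.

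The windows of the increased loci that end close after the hexamer, those in ZNF487, ZNF718 and ZNF721, are shown, with the hexamer in capitals and 30 bases on either side. A further AATAAA, in lower case near the end of the ZNF721 window, lies beyond the listed end of the locus. They lie at chr10:43454605-43454670 (plus strand), chr4:141374-141439 (plus strand) and chr4:457145-457210 (minus strand) of hg38.
ZNF487: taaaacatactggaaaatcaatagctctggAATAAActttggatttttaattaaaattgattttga
ZNF718: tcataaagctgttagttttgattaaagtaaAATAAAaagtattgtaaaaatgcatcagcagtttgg
ZNF721: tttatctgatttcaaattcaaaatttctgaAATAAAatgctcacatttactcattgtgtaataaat

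The locus in ZNF718 had 26.99, 73.3 and 19.15 in DMSO and 57.94, 72.75 and 63.71 in THZ531, with groups that overlapped (0.92, SE 0.39, limma adjusted p = 0.05), while ZNF718 itself fell by 1.05 on the log2 scale. Cleavage sites were not measured.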

How the data were processed

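PolyA plus RNA-seq of OVCAR3 cells gave 3 DMSO and 3 THZ531 libraries, grouped by title. The authors aligned reads to hg38 by STAR (2.7.5a per the submitters' processing notes), counted them with featureCounts on FAST DB genes and deposited values normalized with DESeq2, a signal that is never negative, namely each read count divided by a size factor. The values were tested as deposited on log2(value + 1) with limma 3.58.1 (trended variance, R 4.3.3, no covariates) over the 17568 loci that reached 10 in 3 or more libraries, with thresholds of 1.5-fold and p of 0.05. A test on counts had been planned only if reads could be recovered, and 100% of the values in each library were whole reads within 0.01. These were tested with edgeR 4.0.16 (25 members increased, 104 decreased) and DESeq2 1.42.0 (27 and 101). The procedure was tested on simulated data.

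The members and lists were chosen with earlier results of these data known. The genes named are the 10 members with the largest change each way (called, mean over the 6 libraries of at least 100, groups apart), the members of the 2 role lists, the 5 with most reads, those in runs or next to the minimum, the KRAB partners, the antisense genes, and unnamed loci inside members with their hosts. The back-to-back pairs, ZNF75D, ZNF662, ZNF839, ZNF658 and the printed promoters were chosen after their values were seen. Exons came from GENCODE v44, matched for 233 of the 234 expressed members, and promoters from RefSeq (GRCh38.p14). KRAB, SCAN and finger patterns were read from translated GENCODE coding sequences. Unnamed loci took the strand of their neighbours in identifier order, a method that returned the GENCODE strand for 98.4% of 23876 named loci. Alternatives were other pseudocounts, minimums, scalings, tests, thresholds and leaving out each library.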

Additional observations from a re-analysis of the deposited data

How the results depend on the processing

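The count of members decreased stayed between 99 and 106 and that of members increased between 24 and 31 when each library was left out in turn, and the median log2 fold change between -0.48 and -0.43. At a fold change of 2, 81 members were regulated, 7 of them increased. The number of increases depended on scaling. With the same total 13 members increased and the median was -0.71, and with RPL34 7 increased, 152 decreased and the median was -0.96 (all loci -0.25 and -0.50). A minimum of 50 gave a median of -0.43. With the replicate number as a block, 27 members increased and 101 decreased, with a median of -0.46. The same-numbered libraries did not deviate together (r of 0.0017, 0.0186 and -0.0393). These values cannot show whether equal numbers mark cultures handled together. edgeR and DESeq2 called 25 and 27 increases.

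Of 1470 values of 87 named genes under the alternatives, 1393 kept their direction and call, 34 lost the call, 23 gained it and 20 turned in direction. All 20 were values not called in the first place. Under the same total the log2 fold changes were -0.12 for ZNF664, -0.11 for ZNF598, -0.010 for SETDB1, -0.18 for PPHLN1, -0.16 for ZNF131 and -0.10 for ZNF891. Under RPL34 they were -0.37 for ZNF664, -0.18 for ZNF532, -0.032 for ZNF703, -0.11 for ZNF143, -0.36 for ZNF598, -0.26 for SETDB1, -0.085 for CBX1, -0.43 for PPHLN1, -0.41 for ZNF131, -0.35 for ZNF891 and -0.14 for ZNF10, while ZNF395, ZNF157, ZNF669, ZNF496, ZNF398, ZNF148, ZNF449 and ZNF16 were called as decreases under it. ZNF593 ranged from -0.080 to 0.017 when each library was left out, and ZNF449 reached 0.17 without THZ531 replicate 1. Depth limits the members under a mean of 100 most, where standard errors reached 0.85 (ZNF658, not called by DESeq2 or by limma without a trend). The cause of the differences between scalings was not tested.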
